A study of Homo sapiens with 6 samples.

Results

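The cytosolic ribosomal protein genes and their paralogs were examined in the human glioblastoma cell line U251. Members were chosen by name alone: protein-coding symbols of the RPL, RPS, RPLP and RPSA series, together with paralogs whose symbols end in L, L1 or AL. Kinases of the RPS6K series and pseudogenes were left out. The rule gave 85 of the 28395 genes listed, of which 46 encode large subunit proteins, 31 encode small subunit proteins and 8 are paralogs. Ribosomal protein genes named outside these patterns are no members, and FAU and RACK1 are described apart.

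The data were raw counts from bulk RNA sequencing of 6 libraries, 3 of wild-type cells (WT) and 3 of NUAK2-CR cells, in which the kinase gene NUAK2 was targeted by CRISPR-Cas9. All 6 were labelled as U251MG, a line grown from a human astrocytoma. According to the study, a single NUAK2 guide was delivered in lentiviral vectors carrying GFP or mCherry, and cells positive for both colours were sorted singly and grown as clones. No clone is named in the labels, which also do not say whether the 3 libraries of a group came from separate cultures, so p-values measure the spread between these libraries, which may be technical. For the sequenced WT cells, the study describes neither a control vector nor cloning. A difference due to the NUAK2 edit therefore cannot be told apart from one due to clone, vector or growth from single cells.

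A ribosome is built from a small and a large subunit, each a core of ribosomal RNA dressed with proteins that are mostly present once per particle. The genes for these proteins lie scattered over nearly all chromosomes, and their mRNAs share a 5′ terminal oligopyrimidine tract (TOP), a run of C and T letters that begins with C at the cap and through which mTOR signalling and LARP1 set their translation. Several of the genes have paralogs that are used in particular tissues or states, such as RPL39L and RPL10L in the testis. Free RPL5 and RPL11 bind MDM2, the ubiquitin ligase of p53, when ribosome assembly is disturbed.

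Library totals lay between 29648445 and 55574081 counts, with the deepest library in WT replicate 1. NUAK2 had 1926, 1457 and 1580 normalized counts (counts scaled to a common library size) in WT and 799, 961 and 849 in NUAK2-CR, so the groups did not overlap, though a gene count does not read the edit itself. The astrocytic markers GFAP, VIM, NES, S100B, SOX2 and CD44 were present in all 6 libraries and all 6 were lower in NUAK2-CR, GFAP with a mean of 88323 ± 5494 (SD, n = 3) in WT and 14984 ± 1129 in NUAK2-CR. Of the 13 markers of other cell types, AIF1 and MOG were at 0 and PTPRC, EPCAM and CDH1 reached at most 5.79 normalized counts in any library. SNAP25, PECAM1 and VWF were called higher in NUAK2-CR and KRT8 and MBP lower, SNAP25 with 754 ± 74.9 against 64.6 ± 10.2 in WT and PECAM1 with between 15.2 and 16.9 against between 0 and 1.33. The defining neuronal marker RBFOX3 lay between 4.82 and 17.4 in all libraries. Whether these markers bear on the ribosomal protein genes was not tested.

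The start of transcription was read for the members that carry the comparisons below. The following windows are from RefSeq on GRCh38.p14, each with 15 bases before the annotated first base and 30 bases in all, on the transcribed strand, with the unbroken run of C and T from the first base in capitals. The first set shows the 4 genes with the largest decreases among those with an entry and 2 with increases.
RPL21 (chr13:27251543-27251572, plus strand): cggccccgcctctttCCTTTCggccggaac
RPL38 (chr17:74203663-74203692, plus strand): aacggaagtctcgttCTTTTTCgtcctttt
RPL10 (chrX:154398362-154398391, plus strand): caggcggaggagcgcCTCTTTCCCTTCggt
RPL11 (chr1:23691791-23691820, plus strand): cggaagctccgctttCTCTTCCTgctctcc
RPL34 (chr4:108620561-108620590, plus strand): aaaggcttttttcttCCTCTTCCggggacg
RPL31 (chr2:101002274-101002303, plus strand): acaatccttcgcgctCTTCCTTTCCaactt

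All 6 began with C and went on with at least 4 further pyrimidines, whether the gene was lower or higher in NUAK2-CR. RPL10, RPL11 and RPL34 had other annotated starts without such a run, and the starts used in these cells were not measured. The second set gives parent genes beside their paralogs. Of these, RPL22 and RPL22L1 both began with such a run, while RPL26L1, RPS27L and RPL36AL did not and their parents did.
RPL22 (chr1:6199581-6199610, minus strand): tagttcgctcacctcCCTTTCTaactccgc
RPL22L1 (chr3:170870181-170870210, minus strand): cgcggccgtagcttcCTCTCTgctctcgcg
RPL26 (chr17:8383179-8383208, minus strand): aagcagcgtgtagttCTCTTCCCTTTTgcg
RPL26L1 (chr5:172958714-172958743, plus strand): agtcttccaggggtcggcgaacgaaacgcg
RPS27 (chr1:153990747-153990776, plus strand): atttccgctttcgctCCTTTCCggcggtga
RPS27L (chr15:63157463-63157492, minus strand): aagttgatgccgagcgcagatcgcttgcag
RPL36A (chrX:101390996-101391025, plus strand): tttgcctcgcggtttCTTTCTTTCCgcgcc
RPL36AL (chr14:49620612-49620641, minus strand): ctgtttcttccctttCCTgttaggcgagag

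Of the 68 members with a promoter entry, 47 (69.1%) had at least 1 annotated start with a C followed by 4 bases that were each C or T, against 7.19% of all tested genes with an entry. The share was 73.7% for the large subunit, 75% for the small subunit and 16.7% for the paralogs, where RPL22L1 was the 1 of 6 with such a start. It was 8.7% among the mitochondrial ribosomal protein genes, whose products serve the separate ribosome of the mitochondrion. The letters CCGGAAG, searched on both strands over 300 bases around the start, lay in 35.3% of the members and in 21.1% of tested genes. A match describes the letters and says nothing of translation, which was not measured. Both directions occurred with and without the pyrimidine start. Among 47 members that had it, 7 were called higher and 13 lower, at a median log2 fold change of -0.004, and of 20 tested members without it, 1 was higher and 5 lower, at a median of 0.003. Of all genes tested, 26.3% were called higher and 28.2% lower.

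The members as a whole took the same part of the transcriptome in both groups within the spread of the libraries. They held 3.27%, 3.38% and 3.65% of all counts in the WT libraries and 3.17%, 3.45% and 3.39% in NUAK2-CR, and the groups overlapped. Large subunit genes held 2.21% ± 0.11 (SD, n = 3) in WT and 2.13% ± 0.09 in NUAK2-CR, and small subunit genes 1.18% ± 0.09 and 1.17% ± 0.06. By contrast, the mitochondrial ribosomal protein genes held 0.404%, 0.389% and 0.418% in WT and 0.304%, 0.319% and 0.319% in NUAK2-CR, so that the groups did not overlap.

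The 2 paralogs RPL3L, which replaces RPL3 in muscle, and RPL10L had at most 3 counts in any library and were not tested, which left 83 members. With edgeR's quasi-likelihood test and Benjamini-Hochberg adjustment over 14873 genes, 11 members were higher and 24 lower in NUAK2-CR at an adjusted p under 0.05, and 48 did not pass. The 11 higher members are 13.3% of those tested, against 26.3% of all genes tested, and the 24 lower ones are 28.9%, against 28.2%. Among large subunit genes 5 of 46 were higher and 16 lower, among small subunit genes 6 of 31 were higher and 5 lower, and among paralogs none of 6 was higher and 3 were lower. The count of higher members fell to 5 without NUAK2-CR replicate 2 and to 6 without NUAK2-CR replicate 3, while the count of lower members went from 24 to 16 without NUAK2-CR replicate 1 and to 28 without WT replicate 1.

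The shifts were small. The median log2 fold change was 0.0046 over the members, -0.0035 over the large subunit, 0.13 over the small subunit and -0.18 over the tested paralogs, beside -0.01 over all genes tested. The interquartile range of the members ran from -0.26 to 0.18, a width of 0.44, against a width of 0.74 for all genes. RPL39L was 1 of 2 members, 2.41% of those tested, past both the adjusted p and an absolute log2 fold change of 1, against 13.9% of all genes. The count of members past a log2 fold change of 2 was also 2, against 4.72% of all genes. Without NUAK2-CR replicate 1 or without WT replicate 3, RPL39L was the only member past a log2 fold change of 1. The normalized counts of the groups did not overlap for 31 members (37.3%), against 61.4% of all genes tested.

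**Figure D1:**
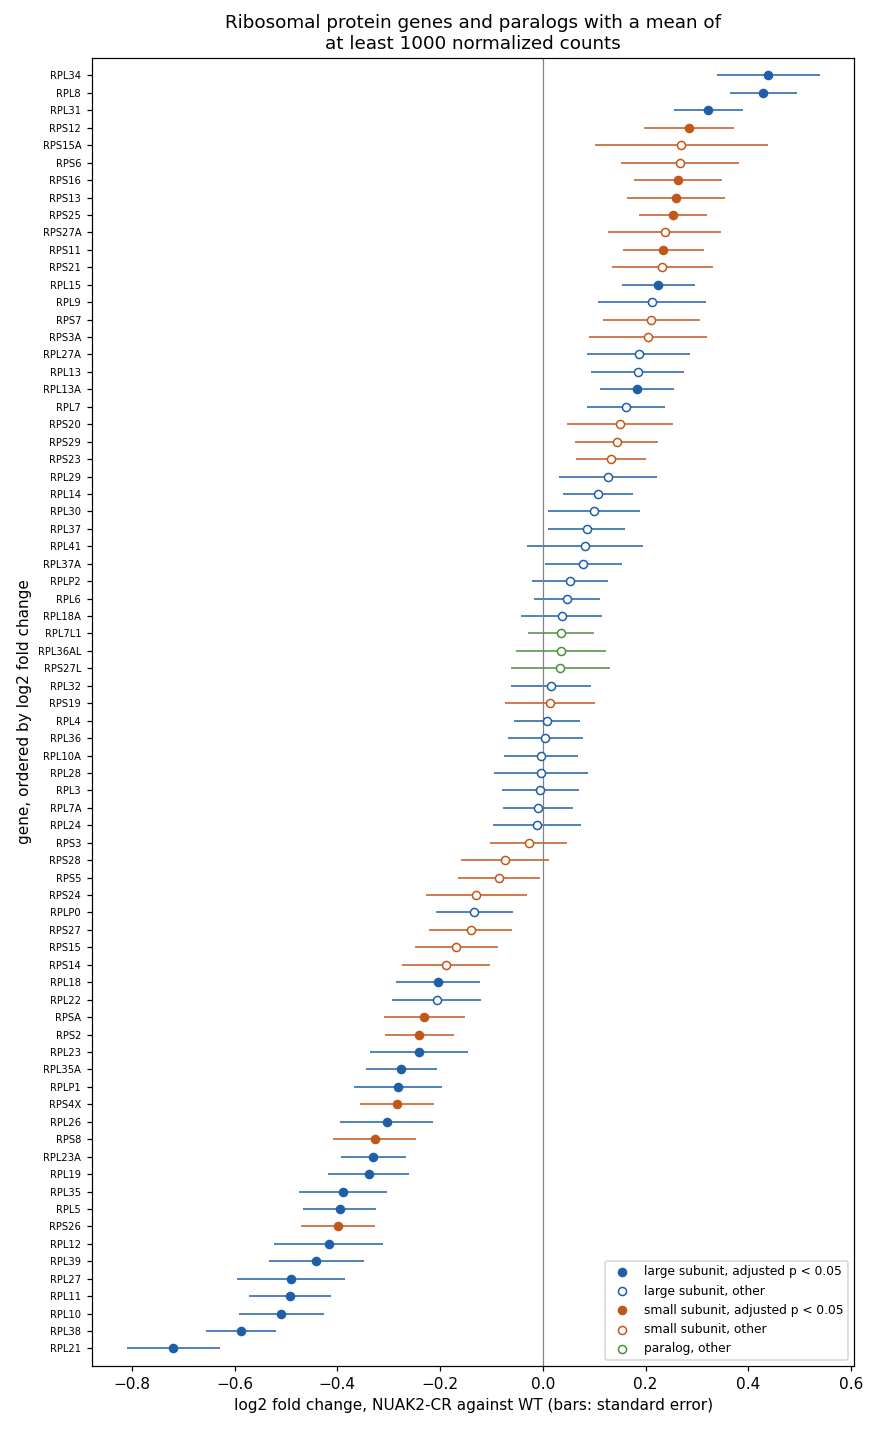
Log2 fold change of NUAK2-CR against WT (horizontal axis, bars are standard errors) for 74 members whose mean reached 1000 normalized counts, ordered by value; filled points have an adjusted p under 0.05 and colours give the subunit. Values run from -0.72 for RPL21 to 0.44 for RPL34, and 48 of the 74 lie within 0.25 of 0.

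RPL39L, the paralog of the small exit tunnel protein RPL39, had the clearest difference of the family. Its raw counts were 114, 157 and 90 in the WT libraries and 0 in each NUAK2-CR library. Every WT library was far above every NUAK2-CR library. With a floor of 3 counts per library, which is the limit that a count of 0 allows for counting error, the NUAK2-CR level of RPL39L was at least 30.2-fold lower (adjusted p = 2.89e-06 by edgeR). The bound ran from 24.1-fold to 34.7-fold when 1 WT library was left out. The gene spans positions 187120948 to 187139496 of chromosome 3 (hg38), and the counts are totals per gene, not per transcript. RPL39 itself, on chromosome X, had 7206, 7303 and 8189 normalized counts in the WT libraries and 4825, 6218 and 5675 in NUAK2-CR. It was thus also lower, with a log2 fold change of -0.44 ± 0.09 (SE, adjusted p = 0.00145 by edgeR). RPL39L made up 1.04%, 2.03% and 1.17% of the counts of the pair in WT and 0% in NUAK2-CR.

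The other paralogs differed little, and their share of the pair was compared with the parent gene in each library. RPL22L1, a paralog of RPL22 that acts in T cell development and splicing, had 392, 483 and 618 normalized counts in WT against 345, 365 and 413 in NUAK2-CR. The groups overlapped, and the log2 fold change of -0.40 ± 0.16 (SE) just passed the test (adjusted p = 0.0467 by edgeR). RPL26L1, the paralog of RPL26, had 399, 544 and 578 in WT and 406, 415 and 299 in NUAK2-CR. This gave a log2 fold change of -0.44 ± 0.16 (adjusted p = 0.0383 by edgeR), again with overlap. With 1 library left out, the call of RPL22L1 was lost in 5 of 6 fits and that of RPL26L1 in 4 of 6, at adjusted p values up to 0.239 for RPL22L1 and 0.162 for RPL26L1. RPS27L, which is a p53 target in many cells, had 1415, 1615 and 1751 in WT and 1494, 1591 and 1800 in the edited cells. The groups overlapped throughout, at a log2 fold change of 0.03 ± 0.10 (SE). RPL36AL and RPL7L1 were likewise close to 0, both at 0.04 with standard errors of 0.09 and 0.06.

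In log2 ratios of paralog to parent, computed after adding 0.5 counts, RPL39L differed by -7.00 between NUAK2-CR and WT and RPS27L by 0.17. The size for RPL39L is set by the added count, since its NUAK2-CR counts are 0, and was -6.01 with 1 count added. These were the 2 pairs of 8 whose libraries did not overlap between groups, each with p = 0.1 in a two-sided exact permutation test, the smallest p that 3 against 3 libraries can give, and 0.4 after adjustment over the 8 pairs. The share of RPS27L in its pair was 9.49%, 9.50% and 9.71% in WT and 10.5%, 9.94% and 11.5% in NUAK2-CR, a shift that went with 90.7% of the WT level for RPS27. For RPL22L1, RPL26L1, RPL7L1 and RPL36AL the ratios overlapped between groups, with differences of -0.19, -0.14, -0.13 and -0.40. The value for RPL36AL rests on fewer than 130 counts of RPL36A in each library.

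**Figure D2:**
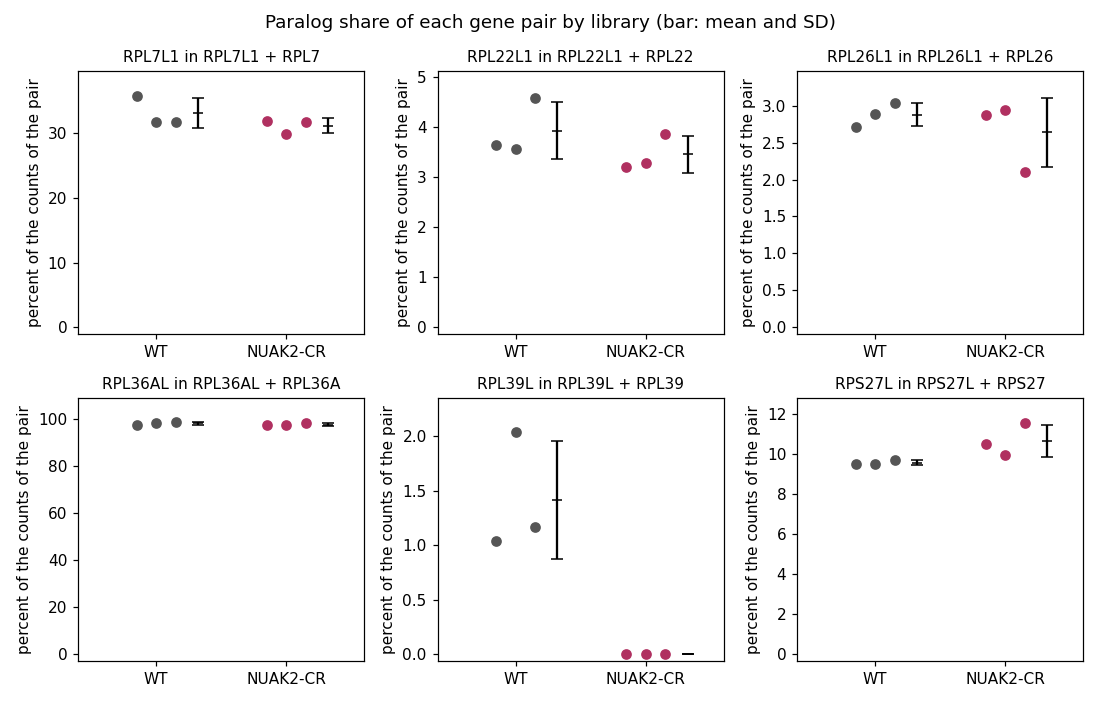
Percent of the counts of each paralog and parent pair that fell on the paralog (vertical axes, from 0), with 1 point per library and the mean and SD beside them. RPL39L falls from between 1.04% and 2.03% in WT to 0% in all 3 NUAK2-CR libraries, while RPL7L1, RPL22L1, RPL26L1 and RPL36AL overlap between groups.

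**Figure D3:**
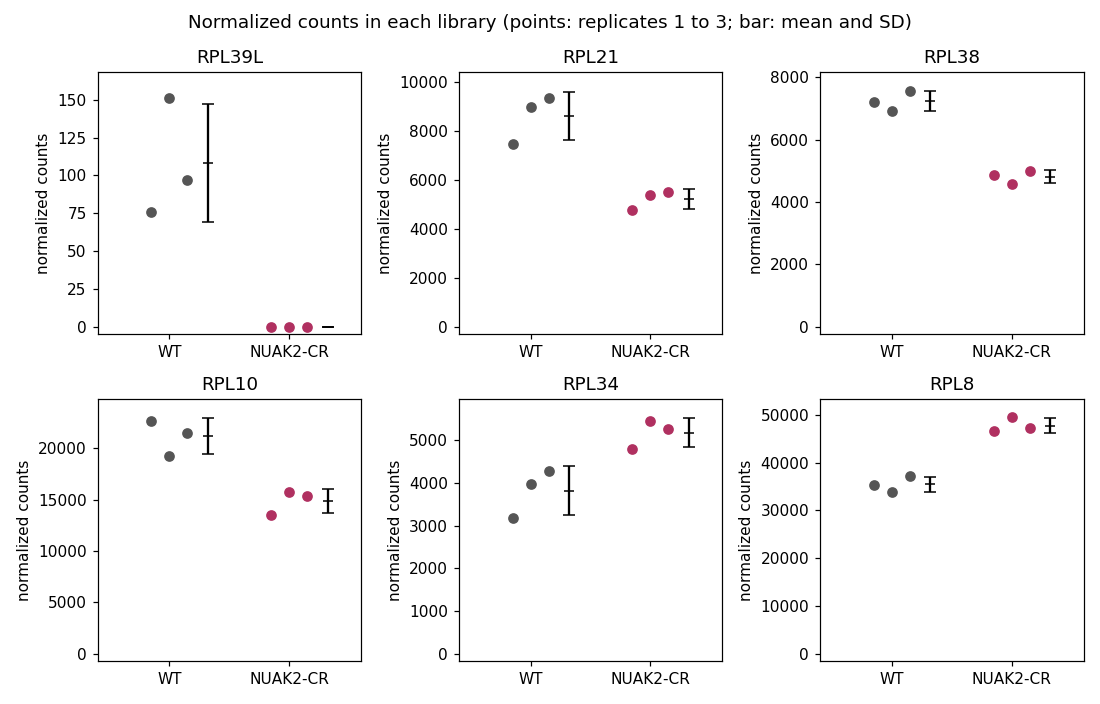
Normalized counts of 6 members in each library (vertical axes from 0; points are replicates 1 to 3 of WT and NUAK2-CR, bars are mean and SD). RPL39L is at 0 in NUAK2-CR, RPL21, RPL38 and RPL10 are lower and RPL34 and RPL8 higher in all NUAK2-CR libraries.

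Among the genes of the core ribosome, the largest decreases were all of large subunit proteins. RPL21 had 7477, 8988 and 9321 normalized counts in the WT libraries and 4755, 5390 and 5510 in NUAK2-CR. The lowest WT library lay above the highest NUAK2-CR library, and the log2 fold change was -0.72 ± 0.09 (SE, adjusted p = 2.93e-05 by edgeR). RPL38, which is known for its part in the translation of Hox mRNAs, had 7224, 6924 and 7566 in WT and 4876, 4579 and 4990 in NUAK2-CR. The groups were well apart, at 66.5% of the WT level (log2 fold change -0.59 ± 0.07, adjusted p = 1.32e-05 by edgeR). RPL10, a late-joining protein needed for the maturation of the large subunit, had 22692, 19242 and 21509 in WT and 13498, 15749 and 15327 in NUAK2-CR, at 70.3% of the WT level. RPL27 had 10852, 13637 and 15072 in WT against 8732, 9947 and 9482, with a log2 fold change of -0.49 ± 0.11.

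RPL5 and RPL11, which join the large subunit together with the 5S rRNA, were both lower. RPL11 had 23664, 28907 and 27781 normalized counts in the WT libraries and 19087, 19528 and 18486 in NUAK2-CR. RPL5 had 22416, 23906 and 25307 in WT and 17688, 19197 and 17578 in NUAK2-CR. For both genes all WT libraries lay above all NUAK2-CR libraries, with log2 fold changes of -0.49 ± 0.08 (adjusted p = 0.000216 by edgeR) and -0.40 ± 0.07 (adjusted p = 0.000484). MDM2, which both proteins bind, was lower as well, with 3429 ± 41.4 (SD, n = 3) in WT and 2623 ± 45.2 in NUAK2-CR. The mRNAs of the stalk that recruits elongation factors were uneven. RPLP1 was lower (-0.28 ± 0.09, adjusted p = 0.014 by edgeR), although this call was lost without WT replicate 3 and without NUAK2-CR replicate 1. RPLP0 at -0.13 ± 0.08 and RPLP2 at 0.05 ± 0.07 did not pass, except RPLP0 without WT replicate 1 (-0.16, adjusted p = 0.0452).

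In the small subunit, RPS26, which sits at the mRNA exit channel, had 4597, 4729 and 5076 normalized counts in the WT libraries and 3671, 3833 and 3420 in NUAK2-CR. Among small subunit genes of at least 1000 counts, this was the lowest log2 fold change. RPS2, with the highest counts of all members, had 67829, 67516 and 73759 in WT and 56342, 61230 and 59451 in NUAK2-CR. Neither gene overlapped between groups, with log2 fold changes of -0.40 ± 0.07 and -0.24 ± 0.07 (adjusted p = 0.000459 and 0.00907 by edgeR). RPSA, which is also known as the 37/67 kDa laminin receptor, was lower at -0.23 ± 0.08 (adjusted p = 0.0255). The call of RPS2 was lost without NUAK2-CR replicate 1, and that of RPSA without NUAK2-CR replicate 1, NUAK2-CR replicate 3 or WT replicate 3. The other genes at the top in counts were RPL4 and RPLP0. RPL4 was nearly level, with 59314, 60024 and 63558 in WT and 58833, 62764 and 62383 in NUAK2-CR (log2 fold change 0.01 ± 0.06).

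RPL34, RPL8, RPL31, RPS12 and RPS16 were higher, by less than the decreases of RPL21 and RPL38. RPL34 had 3190, 3988 and 4292 normalized counts in the WT libraries and 4805, 5455 and 5271 in NUAK2-CR, and RPL8 had 35320, 33916 and 37140 against 46568, 49502 and 47198. Both were at 135% of the WT level with groups that did not overlap (adjusted p = 0.00262 and 0.00014 by edgeR). RPL31 was higher at 0.32 ± 0.07 and RPS12 at 0.28 ± 0.09, also without overlap. RPS16, at 0.26 ± 0.09 (adjusted p = 0.0207), overlapped by a narrow margin, since its highest WT library had 12377 and its lowest NUAK2-CR library 12353. The calls of RPS12 and RPS16 were lost without NUAK2-CR replicate 2, and that of RPS16 also without NUAK2-CR replicate 3 and without WT replicate 2.

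RPS6, the substrate of S6 kinase used as a readout of mTOR signalling, had 25718, 35540 and 36549 normalized counts in the WT libraries and 36694, 41889 and 39070 in NUAK2-CR. The groups were apart by a narrow margin, and the log2 fold change of 0.27 ± 0.11 (SE) did not pass (adjusted p = 0.066 by edgeR). Alternatives under which it did pass include DESeq2, no low-count filter, scaling to library size and leaving out WT replicate 2 or WT replicate 3. RPS27A, which is made as a fusion with ubiquitin, had 9446, 12223 and 13201 in WT and 12613, 14862 and 13605 in NUAK2-CR. It overlapped between groups, at 0.24 ± 0.11 (adjusted p = 0.0865), and alternatives under which it passed include DESeq2, no low-count filter and leaving out WT replicate 3.

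WT replicate 1 was the low library for both of these genes, and this held for many members. Among these 74 members, whose mean reached 1000 normalized counts, WT replicate 1 was the lowest of the WT libraries for 56 and the highest for 11. Its log2 ratio to the mean of the other WT libraries ran from -0.83 for RPS15A to 0.30 for RPL28. RPS15A had 6140 normalized counts in WT replicate 1 but 10697 and 11135 in the other WT libraries and between 10453 and 11948 in NUAK2-CR. The ratio moved with the GC content of the transcript, with r = 0.47 and rho = 0.43 across the 74 genes, and with r = 0.48 and rho = 0.48 across 6787 other genes of at least 1000 counts. These are correlations across genes of the same libraries, which are not independent replicates. The log2 fold change of NUAK2-CR against WT had r = -0.07 and rho = -0.18 with GC over the same 74 members. Without WT replicate 1 the members called were 11 higher and 28 lower, with a median log2 fold change of -0.04.

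**Figure D4:**
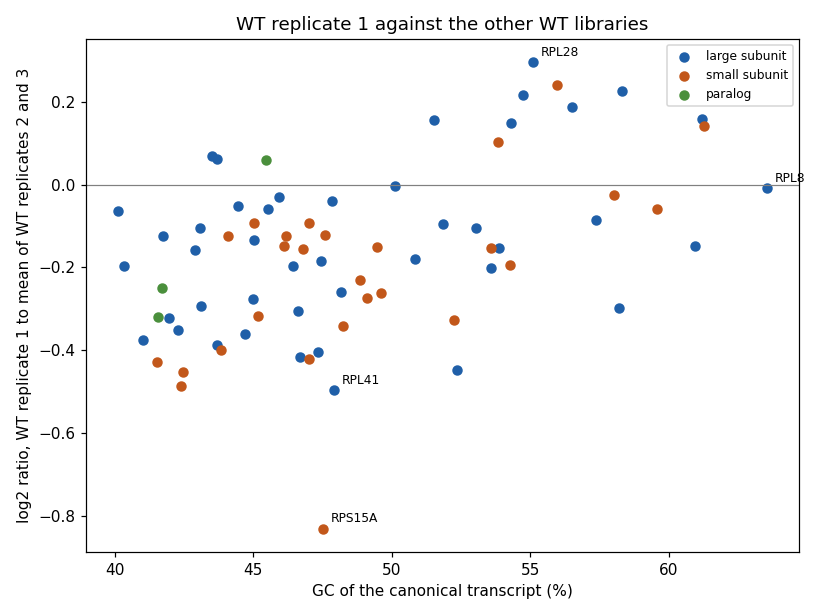
GC content of the canonical transcript in percent (horizontal axis) and log2 ratio of WT replicate 1 to the mean of WT replicates 2 and 3 (vertical axis), with 1 point for each of the 74 members and colours by subunit. Most members lie below 0, RPS15A is lowest at -0.83, and members above 0 are mostly those rich in GC.

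On several chromosomes the members lay on the same side of 0 as the other genes. For each member a local median was taken, which is the median log2 fold change of the 20 nearest tested genes on the same chromosome that are not members. All 5 members on chromosome 1 and all 6 on chromosome 17 were below 0, with medians of -0.33 on each, and 3 and 6 of them were called lower. The other tested genes of these chromosomes had medians of -0.43 and -0.38. On chromosome X, RPL10, RPL39 and RPS4X were all called lower, beside a median of -0.40 for the other genes, and RPL21 is the only member on chromosome 13, where the other genes had a median of -0.46. All 4 members on chromosome 8 were above 0 (median 0.16), where the other genes had a median of 0.30. The medians of members and other genes were opposite in sign on chromosomes 5, 10, 12, 15 and 22, for example 0.09 and -0.22 on chromosome 5.

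Chromosomes 1, 13, 17 and X had the lowest medians of other genes among the chromosomes that carry these 74 members, and were grouped after the values were seen. They held 15 of the members, of which 13 were called lower and none higher, with a median of -0.34. The remaining 59 members had 10 called higher and 8 lower, with a median of 0.05. Of all genes tested, on any chromosome, 26.3% were called higher and 28.2% lower. The share called among the other genes of chromosomes 1, 13, 17 and X was not counted. Over all 74, the log2 fold change and the local median had r = 0.70 and rho = 0.59, as a description across genes measured in the same libraries, and 57 of 74 had the same sign. Subtracting the local median reduced the SD of the log2 fold changes from 0.26 to 0.21 and brought 45 of the 74 nearer to 0. RPL5 went from -0.40 to -0.013, RPL11 from -0.49 to 0.14, RPL21 from -0.72 to -0.18 and RPL8 from 0.43 to -0.43.

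Some members went against their surroundings. RPS26 on chromosome 12, RPSA on chromosome 3 and RPL18 on chromosome 19 were called lower beside local medians of 0.15, 0.18 and 0.27. RPL34 on chromosome 4 was the highest of the 74 beside a local median of -0.02. The other members called lower outside chromosomes 1, 13, 17 and X were RPL12, RPL35, RPL35A, RPLP1 and RPS2, with local medians between -0.19 and -0.05. DNA copy number was not measured, and its part in these shifts was not tested.

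**Figure D5:**
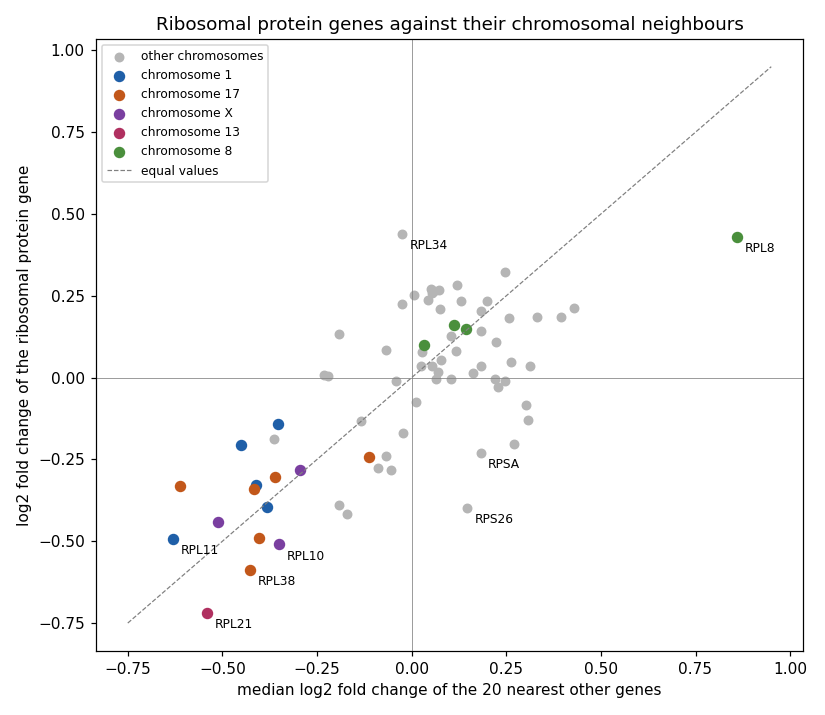
Log2 fold change of each of the 74 members (vertical axis) against the median of its 20 nearest other tested genes (horizontal axis), with 5 chromosomes coloured and a dashed line of equal values. Members on chromosomes 1, 13, 17 and X lie at the lower left, RPL8 on chromosome 8 lies at the far right, and RPS26, RPSA and RPL34 lie away from the line.

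A further 5 core members, RPS18, RPS10, RPS9, RPL17 and RPL36A, had very few counts for genes of the core ribosome. Per kilobase of canonical transcript they had between 26.8 and 145 normalized counts, while the other 71 core genes of at least 1000 counts had a median of 18680 and ranged from 1245 to 68100. RPS18 had 6, 16 and 8 raw counts in the WT libraries and 12, 21 and 18 in NUAK2-CR, and its log2 fold change of 1.15 ± 0.54 (SE) did not pass (adjusted p = 0.0853 by edgeR), though it did without WT replicate 2. RPL17, RPS10 and RPL36A overlap the read-through genes RPL17-C18orf32, RPS10-NUDT3 and RPL36A-HNRNPH2, which were listed with 0 counts. In the GENCODE annotation 77 members had at least 1 pseudogene named after them, 1588 in all, with 133 for RPL21, and 16 members overlap another protein-coding gene. The handling of reads that align to more than 1 place is given only as default settings, and its part in the counts was not tested, so the level of a member with many copies is uncertain.

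Members mutated in Diamond-Blackfan anaemia, an inherited failure of red cell production, were taken as a list of their own. Of the 19 tested, 3 were higher and 8 lower, with a median of -0.14. These are 15.8% and 42.1%, against 26.3% and 28.2% of all genes tested, and no test was made of the difference. Among ribosomal proteins under other symbols, FAU, a fusion of a ubiquitin-like protein with the small subunit protein eS30, was lower at -0.25 ± 0.08 (adjusted p = 0.0135 by edgeR), and RACK1, a scaffold on the small subunit, at -0.25 ± 0.07 (adjusted p = 0.0126).

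The mitochondrial ribosomal protein genes differed more than the cytosolic ones. Of 75 tested, 3 were higher and 44 lower (58.7%, against 28.2% of all genes), with a median log2 fold change of -0.35. In the lists that follow, single genes are given as the log2 fold change and its SE, all called by edgeR at an adjusted p under 0.05 unless stated. Ranks are among the genes called in each list. Counts of called genes are to be read beside the shares over all genes tested, 26.3% higher and 28.2% lower. MRPS31, on chromosome 13, had the lowest value at -1.005 ± 0.10, with MRPS7, on chromosome 17, next at -0.97 ± 0.07. MRPL13, on chromosome 8, had the highest at 0.37 ± 0.08. No test was made of the difference between the cytosolic and the mitochondrial sets.

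The machinery that makes ribosomes moved in part. Of 58 ribosome biogenesis factors 9 were higher and 22 lower, with a median of -0.09. RPF1, which helps to assemble the large subunit, was lowest at -1.06 ± 0.07, and EBNA1BP2 was next at -0.83 ± 0.07, both on chromosome 1. BOP1, a partner in the processing of 28S rRNA that lies on chromosome 8, was highest at 0.59 ± 0.12, followed by NOL6 at 0.31 ± 0.08. Of the 10 chaperones that carry single ribosomal proteins, none was higher and 3 were lower (median -0.18), among them BCCIP at -0.83 ± 0.07 and HEATR3, which carries RPL5, at -0.45 ± 0.09. Of 13 genes of the RNA polymerase I machinery 4 were higher and 4 lower, with TAF1A lowest at -0.83 ± 0.11, then POLR1D at -0.46 ± 0.08, and POLR1G highest at 0.71 ± 0.14, then POLR1E at 0.63 ± 0.07.

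Other mRNAs with a TOP start, such as those of elongation factors, had 6 of 19 higher and 3 lower with a median of 0.14. Among those called, EIF3H and EIF3E, both on chromosome 8, were highest at 0.59 ± 0.07 and 0.54 ± 0.10. The largest value of the list, 0.65, was not called. The intermediate filament gene VIM was lowest at -0.49 ± 0.07, followed by FAU among those called. Among the translation initiation factors 6 of 27 were higher and 6 lower (median -0.04), from EIF3I at -0.94 ± 0.07 and EIF3M at -0.81 ± 0.07 to EIF4A2, a helicase, at 0.61 ± 0.08. Of 11 host genes of small nucleolar RNAs 1 was higher, SNHG1 at 0.38 ± 0.09, and 2 were lower, SNHG12 at -0.60 ± 0.19 and GAS5 at -0.22 ± 0.07.

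Genes that control the synthesis of ribosomal proteins moved both ways. Of 33 genes of mTOR signalling and TOP mRNA control 11 were higher and 11 lower, with a median of -0.01. MTOR itself, on chromosome 1, was lower at -0.57 ± 0.09 and RPS6KB1, the S6 kinase, on chromosome 17, at -0.72 ± 0.07. LARP1, on chromosome 5, was at -0.05 ± 0.08 and did not pass. Other tested genes of chromosomes 1, 17 and 5 had medians of -0.43, -0.38 and -0.22. DEPTOR lies on chromosome 8, where other genes had a median of 0.30. It was the highest of the list at 3.22 ± 0.14, with 153 ± 37.9 normalized counts (SD, n = 3) in WT and 1418 ± 79.0 in NUAK2-CR. DDIT4, on chromosome 10, was at 1.26 ± 0.09, and SESN3, on chromosome 11, was lowest at -1.47 ± 0.09. Activity of the pathway was not measured. Other genes of chromosomes 10 and 11 had medians of 0.08 and 0.03. The part of chromosomal position in the values of this list and of those below was not tested.

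MYC, a driver of ribosome synthesis that lies on chromosome 8, was higher at 0.99 ± 0.07. It had 1671, 1775 and 1864 normalized counts in the WT libraries and 3533, 3450 and 3562 in NUAK2-CR. Of 11 genes of the MYC network tested 5 were higher and 4 lower (median 0.18), with MXD1 next highest at 0.69 ± 0.18 and MYCL lowest at -3.34 ± 0.45, then MXD3 at -0.67 ± 0.11. Among 20 p53 target genes 6 were higher and 7 lower with a median of -0.12. FAS, the death receptor, on chromosome 10, was highest at 1.31 ± 0.15, then BBC3, on chromosome 19, at 1.20 ± 0.17. FDXR, on chromosome 17, was lowest at -1.06 ± 0.10, then DDB2, on chromosome 11, at -0.64 ± 0.10.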

How the data were processed

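RNA was sequenced from 3 WT and 3 NUAK2-CR libraries, grouped by their labels. The authors deposited raw counts per gene: reads were trimmed with Trimmomatic, aligned to hg38 with HISAT2 and counted with featureCounts at default settings, while the annotation, the strand setting and tool versions are not given in the sources used here. No normalization had been applied. Gene identifiers were matched to RefSeq symbols (27745 of 28395). Counts were tested in R 4.3.3 with edgeR 4.0.16 (filterByExpr, TMM, quasi-likelihood F test, Benjamini-Hochberg adjustment over 14873 genes, prior count 0.125), and the fit was tested on simulated data. Normalized counts are scaled to the mean effective library size. Canonical transcripts were taken from GENCODE 44 and start windows from RefSeq. Members and gene lists were chosen with earlier results of these data known. The genes named are NUAK2, the paralogs, RPL5, RPL11, the P stalk genes, RPSA, RPS6, RPS27A, the 3 members with the highest counts, the 6 highest and 6 lowest called members with at least 100 normalized counts, any past a log2 fold change of 1, and the 2 highest and 2 lowest called genes of each other list. Some genes that this rule or the lists include are not reported here. Others named, such as RPS15A, RPS26 and RPL39, were chosen after their values were seen. Alternatives were DESeq2 1.42.0, other filters and scalings, a replicate block and leaving out each library. Chi-square per degree of freedom between replicates lay between 6.25 and 57.6, so no library was a repeat of another. Intervals and floors cover counting error only.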

Additional observations from a re-analysis of the deposited data

How the results depend on the processing

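Each library was left out in turn, and DESeq2, other low-count filters and other scalings were tried. Leaving out 1 library gave between 5 and 15 higher members, between 16 and 28 lower members, and between 1 and 3 members past an absolute log2 fold change of 1. An adjusted p under 0.01 left 4 higher members, since the threshold is stricter. The count past a log2 fold change of 1 was 1 under DESeq2 and 1 with at least 10 counts in every library, a filter that removes RPL39L. Leaving the 10 highest other genes out of the total raised the percent of counts on members to 3.64 in WT and 3.55 in NUAK2-CR. The medians of the members and of each subunit stayed within the spread of replicates under all alternatives.

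The numbers of the replicates did not pair the libraries: the correlations of same-numbered libraries were 0.04, -0.04 and 0.05. With the replicate block 16 members were higher and 23 lower, and 1 passed a log2 fold change of 1. Under it RPS6 (0.28, adjusted p = 0.0123 by edgeR) and RPS27A (0.25, adjusted p = 0.0195) passed as well.

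Among genes reported here under the naming rule, 3 log2 fold changes turned in sign over fits with 1 library left out. They were those of RPL36AL, from -0.058 to 0.087, RPS27L, from -0.045 to 0.109, and RPL4, from -0.008 to 0.055. Members outside that rule are not covered. The low end for RPL36AL came without WT replicate 1 and that for RPS27L without NUAK2-CR replicate 3. Relative to the local median, RPL11 turned to 0.14 and RPL8 to -0.43. RPLP2, RPL36AL and RPL7L1, all close to 0 before, turned to -0.025, -0.148 and -0.019. Few counts limit RPL3L and RPL10L, which were left untested, and RPS18, which passed only without WT replicate 2. The reason for these low counts was not tested. With 3 libraries a group the exact test of the paralog ratios cannot go below 0.1.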
